A study of Arabidopsis thaliana with 28 samples.

Results

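The xyloglucan endotransglucosylase/hydrolases, the XTH family, were followed across 8 groups of whole Arabidopsis seedlings. Members were chosen by family membership alone, as the 33 loci named XTH1 to XTH33, and all 33 were among the 27371 genes of each table. The family was taken up after its values in these same tables were known, so every level and change below is a description and none is a test. The first experiment held seedlings of the T-DNA line labelled idd4 (Salk_148352C) after 1 h of 1 μM flg22, WT (Columbia) seedlings after the same treatment, and both genotypes untreated, with 3 samples a group in the labels. The second held IDD4-DD, IDD4-AA and IDD4ox in the Columbia background and a WT of its own, with 2 samples a group and no treatment named; the study's text gives more replicates than the labels for these lines, and the tables do not show how many were combined. All 3 constructs were driven by the UBI10 promoter, which is active in most tissues; IDD4ox carried a GFP fusion, and IDD4-AA and IDD4-DD carried RFP fusions with alanine or aspartic acid, in that order, in place of serine-73 and threonine-130, which are phosphorylated. All seedlings were 14 days old, and how many independent lines stand behind each transgenic group is not given in the labels. The second experiment's constructs were added to a plant that kept its own IDD4 gene.

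Xyloglucan is the main polysaccharide that coats and tethers cellulose in the primary wall of Arabidopsis. XTH enzymes cut a xyloglucan chain and join the new end to another chain, or, in a few members, to water, and so loosen, rebuild or shorten the network while a cell grows or its wall is under strain. By sequence the family is usually read in order of its numbers, from XTH1 to XTH11, from XTH12 to XTH26 and from XTH27 to XTH33; the last set includes XTH31 and XTH32, which act mainly as hydrolases in vitro. flg22 is a peptide of bacterial flagellin that triggers immune signalling in the plant, and IDD4 is a zinc finger transcription factor that binds the ID1 sequence.

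XTH enzymes typically share a short catalytic site with a glutamate that attacks the xyloglucan chain, an aspartate that assists it and a glutamate that acts as the acid and base. The coding sequence of this site is shown for the 3 members with the highest levels after flg22, for XTH9, and for XTH11, whose site stands apart. The sequences are those of the RefSeq annotation of TAIR10.1, 27 bases each, with the 3 codons of these residues in capitals.
XTH18: gatGAGattGATttcGAGttcttagga
XTH22: gacGAGataGATttcGAGtttttaggg
XTH24: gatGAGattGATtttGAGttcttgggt
XTH9: aacGAAttcGATtttGAGttcttaggg
XTH11: gatGAGctcTGTttcCAGatcttggga
The capitals spelled glutamate, aspartate and glutamate in 32 of the 33 members. In XTH11 (chr3:18007098-18008535, plus strand, with 4 exons) they spelled glutamate, cysteine and glutamine, and the stretch shown is bases 316 to 342 of its coding sequence. No pair of members shared the whole 27-base sequence, since 33 distinct sequences were found.

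The 80 bases before the annotated start are shown for XTH18, the member with the largest flg22 change, and for XTH17, whose sequence there is nearly the same. The windows are chr4:14827212-14827291 on the minus strand for XTH18 and chr1:24256974-24257053 on the plus strand for XTH17, in TAIR10.1. Capitals mark the 6 letters of XTH18 that match the rapid stress response element, CGCGTT, read on the opposite strand, and the 6 letters at the same place in XTH17. This element is known from promoters that respond within minutes to wounding and other stress.
XTH18: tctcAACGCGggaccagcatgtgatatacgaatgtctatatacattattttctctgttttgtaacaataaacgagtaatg
XTH17: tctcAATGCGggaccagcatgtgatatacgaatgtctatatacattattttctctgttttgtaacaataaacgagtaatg
The 2 windows were identical at 79 of 80 bases. The 1 difference, C7T from XTH18 to XTH17 with positions counted from 1 at the 5′ end of the window, lay within the capitals. Against XTH18 the other 31 members had 16 to 31 identical bases in the same window. Just upstream of these windows the sequences of XTH18 and XTH17 were no longer nearly the same, so their promoters differ at more than this 1 base. Further upstream XTH18 also held a W-box, the core site of WRKY factors, 103 to 98 bases before its start.

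IDD4 itself (AT2G02080) was read first as a check of the labels. It had 22.4 FPKM in idd4-labelled seedlings after flg22, against 5.69 FPKM in WT after flg22, and 23.0 FPKM in untreated idd4-labelled seedlings, against 14.5 FPKM in untreated WT. FPKM count the sequenced fragments of a gene, corrected for its transcript length and for the library's total. IDD4 was thus higher, and not lower, in both idd4-labelled groups, so the words "idd4-labelled" are kept here and no direction of loss is drawn from it. The study describes this line as a knockout, with a T-DNA in the first exon and an RT-PCR of the transcript. FPKM summed over a gene are another measure than that RT-PCR, and the difference was not tested. In the second experiment IDD4 had 198 FPKM in IDD4-DD, 71.6 FPKM in IDD4-AA and 197 FPKM in IDD4ox, against 9.23 FPKM in the WT of that experiment. IDD4-DD and IDD4-AA thus differed in the RNA level of IDD4 as well as in the residues replaced. The contributions of that level and of the residues cannot be told apart in these values. The study itself states that it selected IDD4-AA and IDD4-DD lines with comparable transcripts and equal protein by immunoblot. FPKM do not measure protein, and the gap between that statement and these FPKM is left as it stands.

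Each table gave 1 value for a gene and group, combined by the authors over samples, so no error, interval or p-value could be computed and depth is unknown. Changes below are log2 differences of FPKM + 1, which understate the change of low genes, over genes that reached 1 FPKM in either group. A change of at least 1.5-fold on that scale was counted in each direction, and the same count over all genes stands beside it. The 5 leaf markers summed to between 6539.7 and 10350.5 FPKM, the 7 root markers to between 67.6 and 228 FPKM with none at 0, and the 3 secondary wall cellulose synthases to between 7.70 and 12.4 FPKM, in groups labelled as whole seedlings. In these seedlings a change in the share of a cell type and a change in RNA per cell cannot be told apart.

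Levels differed widely within the family. In untreated WT 26 of the 33 members reached 1 FPKM, and the summed level of the family was 1511 FPKM. XTH27 (AT2G01850), known from the veins of young leaves, led with 288 FPKM, followed by XTH24 (267 FPKM), XTH22 (176 FPKM), XTH4 (158 FPKM) and XTH6 (138 FPKM). Between 89.2 and 20.8 FPKM stood XTH7, XTH31, XTH16, XTH9, XTH32, XTH18, XTH15, XTH19 and XTH28, in that order. XTH17 had 16.7 FPKM, XTH8 14.8, XTH30 10.6 and XTH23 9.53. Without replicate values no neighbours in this order can be said to differ. XTH1 and XTH3 were listed at 0 in all 8 groups, XTH2 did not exceed 0.17 FPKM and XTH29 did not exceed 0.219 FPKM in any group. In the WT of the second experiment the order was another, led by XTH22 (182 FPKM), XTH31 (136 FPKM) and XTH9 (93.7 FPKM), with a summed level of 915 FPKM. Since the tables come from separate experiments, their levels are given side by side and not compared.

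**Figure D1:**
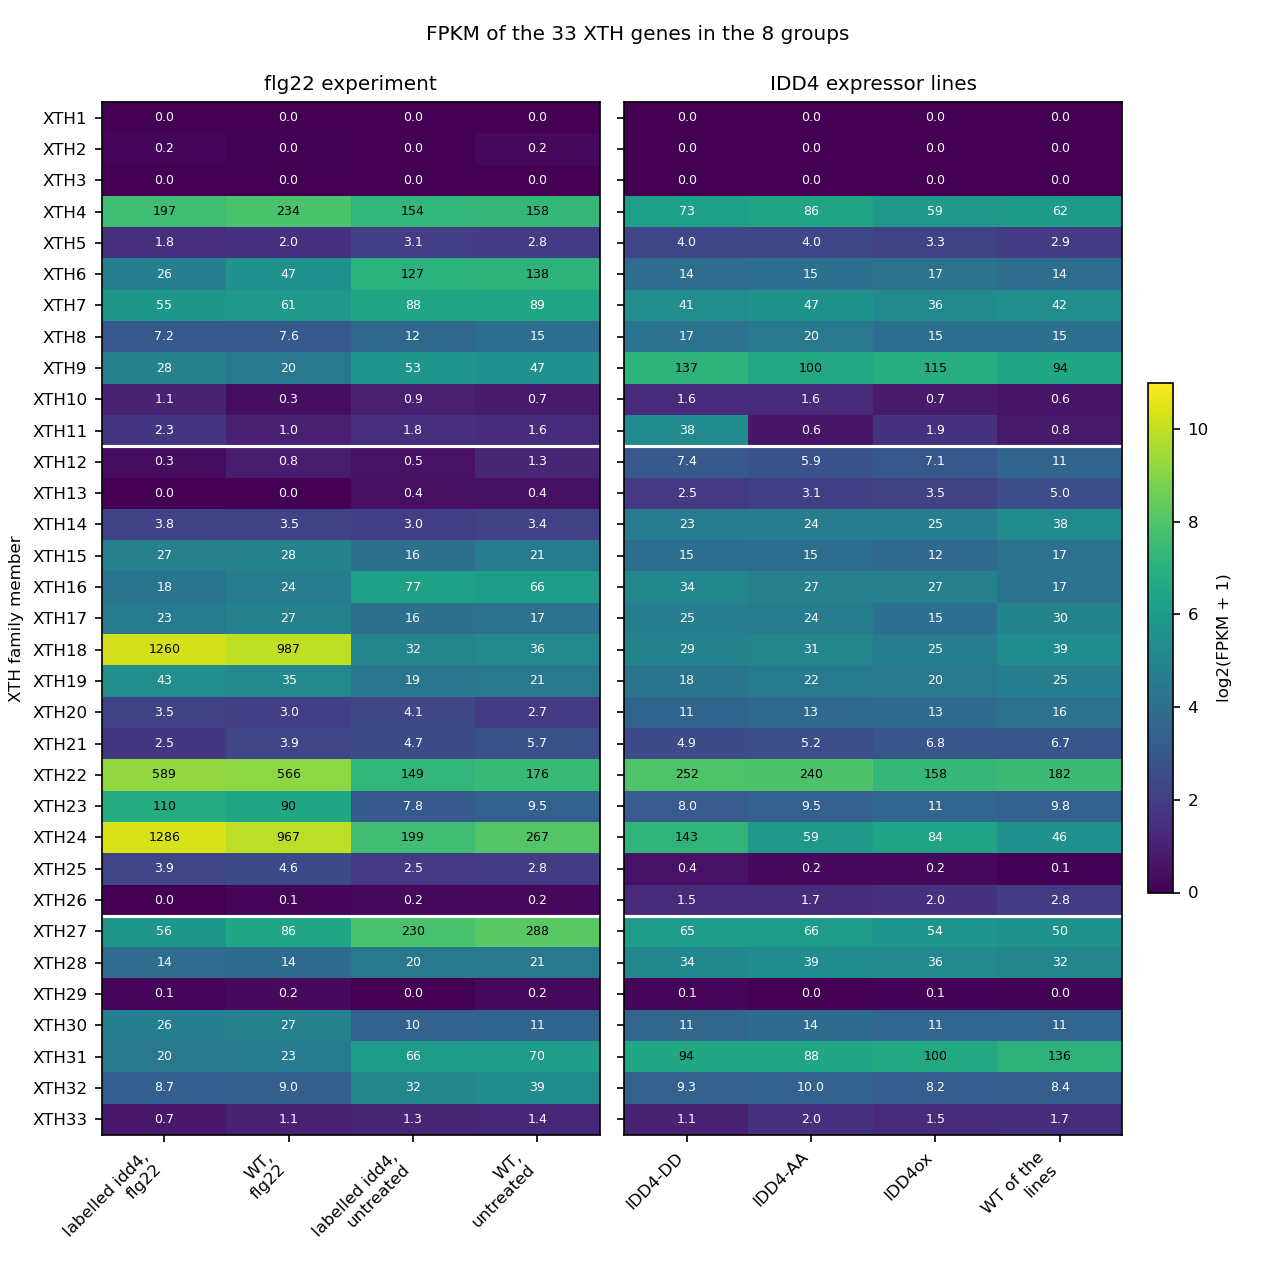
Level of each of the 33 XTH genes (rows) in each of the 8 groups (columns), coloured by log2(FPKM + 1) and printed in each cell as FPKM, 1 value a group combined by the authors; a printed 0.0 also stands for values under 0.05, and white lines separate XTH1 to XTH11, XTH12 to XTH26 and XTH27 to XTH33. XTH18, XTH22 and XTH24 are brightest after flg22, with 566 to 1286 FPKM, and XTH11 stands out in IDD4-DD with 38.3 FPKM.

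After flg22 the summed level of the family was higher and its make-up was another. The summed level was 3815 FPKM in idd4-labelled seedlings after flg22, against 1332 FPKM untreated, and 3275 FPKM in WT after flg22, against 1511 FPKM untreated. XTH18, XTH22 and XTH24, known from roots, from touched plants and from growing stem tissue, were the 3 highest members after flg22 and made up 82.2% of that sum in idd4-labelled seedlings and 77.0% in WT. XTH18 alone made up 33.02% of the sum in idd4-labelled seedlings after flg22, against 2.41% untreated, and 30.1% in WT after flg22, against 2.35% untreated. The gain of these 3 members together was 2754 FPKM in idd4-labelled seedlings and 2042 FPKM in WT, while the other 30 members together changed by -272 FPKM and -278 FPKM.

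**Figure D2:**
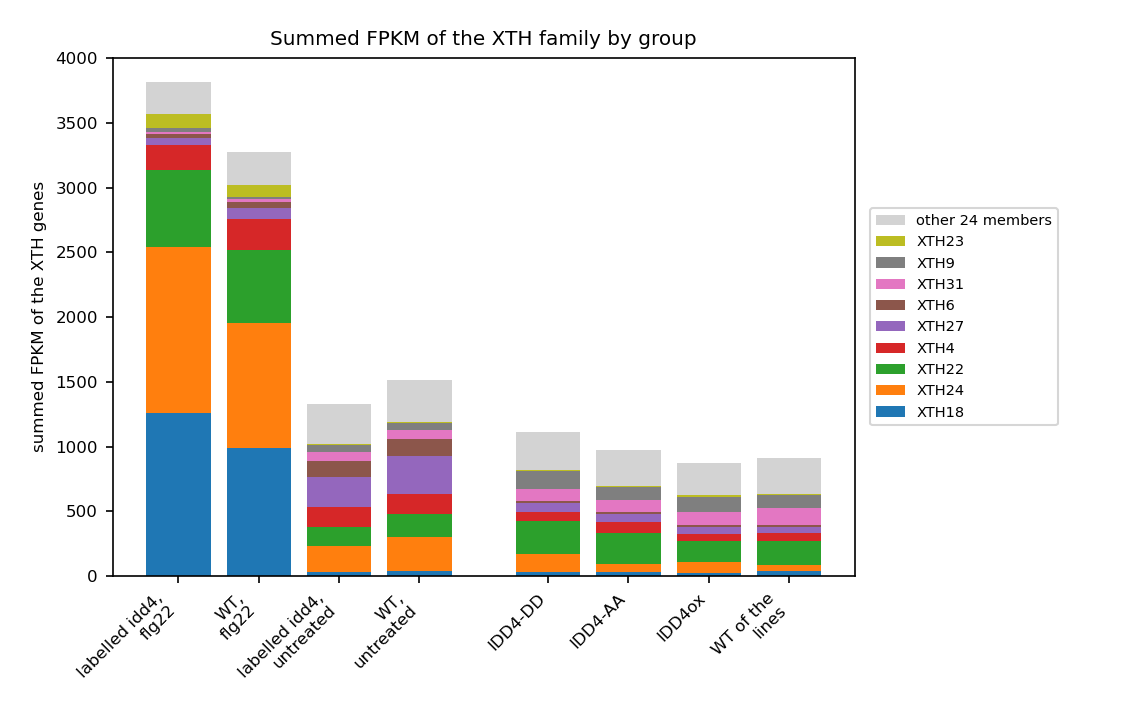
Summed FPKM of the 33 XTH genes in each group, stacked by member, with 9 members in colours and the other 24 in grey; each group has 1 value a gene and no error. The 2 flg22 groups reach 3815 and 3275 FPKM, mostly XTH18, XTH24 and XTH22, while the untreated groups and the lines stay between 871 and 1511 FPKM.

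XTH18 (AT4G30280) had 987 FPKM in WT after flg22, against 35.6 FPKM in untreated WT, a log2 change of 4.76 and a ratio of 27.8. In idd4-labelled seedlings it had 1259.7 FPKM after flg22, against 32.2 FPKM untreated, a log2 change of 5.25. XTH18 is a root-expressed member for which reduced expression is known to shorten root epidermal cells. Its change in WT had rank 108 from the highest among 18540 genes. XTH17 and XTH19, its closest relatives and likewise known from roots, changed far less. XTH17 had 27.2 FPKM in WT after flg22, against 16.7 FPKM untreated (log2 change 0.68), and 22.8 FPKM in idd4-labelled seedlings after flg22, against 15.9 FPKM untreated (0.50). XTH19 had 35.0 FPKM in WT after flg22, against 21.1 FPKM untreated (0.71), and 42.8 FPKM in idd4-labelled seedlings after flg22, against 19.02 FPKM untreated (1.13). XTH20, the fourth member of this subgroup, had 3.001 FPKM in WT after flg22, against 2.69 FPKM untreated. Among the family, XTH17 and XTH18 were the sole pair of 528 with any 101-base stretch of transcript alike to within 2 mismatches, at 1.16% of the stretches of XTH17 and 1.12% of those of XTH18, so few untrimmed reads of a member could align to another. Identical runs reached 68 bases between XTH18 and XTH19, 51 between XTH17 and XTH19 and 47 between XTH17 and XTH18. Reads shortened by trimming could therefore align to either member of such a pair, and their part in these values was not tested.

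XTH22 (AT5G57560, TCH4), the touch-induced member after which the TOUCH genes were partly named, had 566 FPKM in WT after flg22, against 176 FPKM untreated, a log2 change of 1.68. In idd4-labelled seedlings it had 589 FPKM after flg22, against 149 FPKM untreated, a log2 change of 1.97. XTH23 (AT4G25810) is a close relative of XTH22. It had 89.9 FPKM in WT after flg22, against 9.53 FPKM untreated (3.11), and 110.5 FPKM in idd4-labelled seedlings after flg22, against 7.77 FPKM untreated (3.67). XTH24 (AT4G30270, MERI5), first known from the shoot meristem, had 967 FPKM in WT after flg22, against 267 FPKM untreated (1.85), and 1286 FPKM in idd4-labelled seedlings after flg22, against 199 FPKM untreated (2.68). XTH22 and XTH24 were thus already among the 3 highest members before treatment in WT, while XTH23 was in the lower part of the order.

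XTH30 was the sole member of XTH27 to XTH33 past 1.5-fold higher after flg22. It had 27.2 FPKM in WT after flg22, against 10.6 FPKM untreated (log2 change 1.28), and 25.9 FPKM in idd4-labelled seedlings after flg22, against 10.3 FPKM untreated (1.25). XTH15, known from elongating hypocotyls in shade, had 28.3 FPKM in WT after flg22, against 21.2 FPKM untreated (0.40), and 26.999 FPKM in idd4-labelled seedlings after flg22, against 15.9 FPKM untreated (0.73). XTH4, a transglucosylase of vascular tissue, had 234 FPKM in WT after flg22, against 158 FPKM untreated (0.56), just short of 1.5-fold, as XTH17, above, was just past it. XTH25 had 4.59 FPKM in WT after flg22, against 2.82 FPKM untreated (0.55).

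The members that were lower after flg22 were mostly abundant ones of XTH1 to XTH11 and XTH27 to XTH33. XTH32 (AT2G36870) had 8.998 FPKM in WT after flg22, against 39.1 FPKM untreated, a log2 change of -2.01, the lowest of the family in WT. XTH31 (AT3G44990), the other mainly hydrolytic member, had 22.7 FPKM in WT after flg22, against 69.6 FPKM untreated (-1.57). XTH27 had 86.5 FPKM in WT after flg22, against 288 FPKM untreated (-1.72), and stood behind XTH18, XTH24, XTH22, XTH4 and XTH23 in treated WT. XTH6 (AT5G65730) had 46.6 FPKM in WT after flg22, against 138 FPKM untreated (-1.54), and 25.7 FPKM in idd4-labelled seedlings after flg22, against 127 FPKM untreated (-2.27). XTH16, alone among the abundant members of XTH12 to XTH26, was lower too, with 23.9 FPKM in WT after flg22, against 66.1 FPKM untreated (-1.43). XTH9, known from stem growth, had 20.4 FPKM in WT after flg22, against 46.6 FPKM untreated (-1.15), and XTH8 had 7.57 FPKM against 14.8 FPKM (-0.88). XTH7 had 61.1 FPKM in WT after flg22, against 89.2 FPKM untreated (-0.54), and XTH28, known from stamen filaments, had 13.9 FPKM against 20.8 FPKM (-0.55), both short of 1.5-fold.

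Counted over the 26 members that passed the filter in WT, flg22 left 7 past 1.5-fold upward and 7 past it downward. Over all 18540 genes 17.1% were higher and 22.2% lower in that comparison, and the shares of the members, 26.9% in each direction, lay somewhat above both. In idd4-labelled seedlings 7 members were higher and 9 lower of 26, beside 20.4% and 19.4% of 18558 genes. The medians of the members were -0.27 in WT and -0.01 in idd4-labelled seedlings, beside -0.16 and -0.06 over all genes. Scaling both groups to the median ratio of genes at 5 FPKM or more raised every log2 change in WT by up to 0.11, and relative to the median gene the members called higher there stand that much further out and those called lower that much nearer. The split followed the family's numbering: 6 of the 13 members of XTH12 to XTH26 that passed were higher and 1 lower in WT, whereas 0 of 7 were higher and 3 lower for XTH1 to XTH11, and 1 of 6 was higher and 3 lower for XTH27 to XTH33. The medians of these sets were 0.55, -0.54 and -1.06 in WT and 0.61, -0.59 and -1.06 in idd4-labelled seedlings. XTH11 and XTH12 passed the filter in WT through the untreated group only. Under 6 FPKM in all 4 groups, besides the members at or near 0, stood XTH5, XTH10, XTH11, XTH12, XTH14, XTH20, XTH21, XTH25 and XTH33, of which XTH21 alone was past 1.5-fold, at 2.45 FPKM in idd4-labelled seedlings after flg22, against 4.74 FPKM untreated (-0.73). XTH13 was listed at 0 after flg22 in both genotypes, against 0.386 FPKM in untreated idd4-labelled seedlings and 0.402 FPKM in untreated WT.

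**Figure D3:**
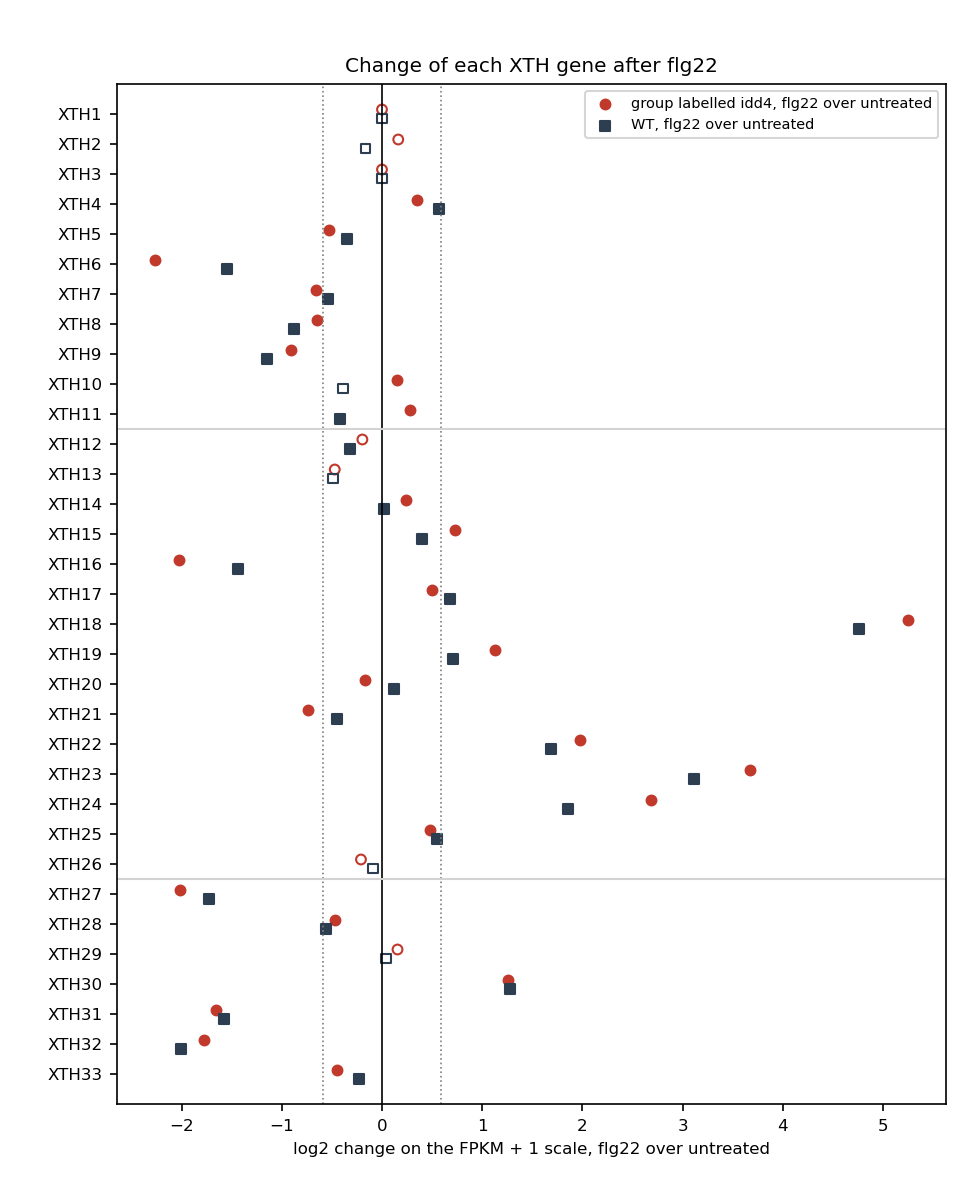
Log2 change of each XTH gene on the FPKM + 1 scale, flg22 over untreated, for idd4-labelled seedlings (red circles) and WT (dark squares); open symbols are genes under 1 FPKM in both groups of that comparison, dotted lines mark 1.5-fold, and there are no error bars since each group has 1 value. XTH18 lies at 5.25 and 4.76 and XTH23 at 3.67 and 3.11, while XTH6, XTH16, XTH27, XTH31 and XTH32 lie between -2.27 and -1.43.

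The flg22 changes of both genotypes, which share no samples, lay close together. Across the 27 members that passed in either genotype Pearson's r was 0.98 and Spearman's rho 0.96, beside an r of 0.83 across 18964 genes; members share the libraries of their groups and are not replicates. The members that changed most tended to lie further out in idd4-labelled seedlings. The change of XTH24 was larger there by 0.83 on the log2 scale and that of XTH23 by 0.56, and the change of XTH6 was more negative by 0.72 and that of XTH16 by 0.59. XTH32 and XTH9 lay further out in WT, with -1.78 and -0.91 in idd4-labelled seedlings, against -2.01 and -1.15 in WT. The median absolute gap between genotypes was 0.24 over the members and 0.21 over all genes, and no gap could be tested.

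Between the genotypes without treatment the family was nearly level. Of 26 members 0 were past 1.5-fold upward and 1 downward in untreated idd4-labelled seedlings, beside 1.59% and 2.02% of 18349 genes. That member was XTH12, at 0.465 FPKM in idd4-labelled seedlings, against 1.30 FPKM in WT, and it passed the filter through WT alone. Most members had slightly lower values all the same: 21 of 26 lay below 0, with a median of -0.12, beside -0.05 over all genes, and after scaling to the median ratio 16 of 26 did. XTH24 (199 against 267 FPKM, log2 change -0.42), XTH15 (-0.39) and XTH27 (230.1 against 288 FPKM, -0.32) lay lowest after XTH12, and XTH20, at 4.11 FPKM in idd4-labelled seedlings against 2.69 FPKM in WT, lay highest at 0.47.

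Compared after flg22, idd4-labelled seedlings had 2 of 26 members past 1.5-fold above WT and 2 below it, beside 3.15% and 1.72% of 17926 genes. The lower ones were XTH6 (25.7 FPKM in idd4-labelled seedlings, against 46.6 FPKM in WT, log2 change -0.83) and XTH27 (56.2 against 86.5 FPKM, -0.61), both of which were also lower after flg22 in either genotype. The higher ones were XTH11 (2.35 against 0.987 FPKM) and XTH10 (1.14 against 0.316 FPKM), which passed the filter through idd4-labelled seedlings alone and so could only be higher. XTH18 (0.35), XTH24 (0.41) and XTH9 (0.43) were within 1.5-fold. The 5 leaf markers were lower in the idd4-labelled groups as well, with sums of 8236 FPKM after flg22, against 10350.5 FPKM in WT, and 7450.5 FPKM untreated, against 9139 FPKM in WT; their part in these changes was not tested.

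In the expressor lines the family's widest change was that of XTH11. XTH11 (AT3G48580) had 38.3 FPKM in IDD4-DD, 0.609 FPKM in IDD4-AA and 1.94 FPKM in IDD4ox, against 0.759 FPKM in the WT of that experiment. IDD4-DD stood alone, at a log2 change of 4.48 against WT and a ratio of 50.4, while IDD4ox was at 0.74. Among 18955 genes only 2 had a larger change in IDD4-DD, and against IDD4-AA the log2 change was 4.61. In the first experiment XTH11 stayed between 0.987 and 2.35 FPKM in all 4 groups. XTH11 is the member whose catalytic codons, printed above, differ from those of the other 32. It passed the filter through IDD4-DD, or in IDD4ox through that line, alone. Of the 12 genes beside XTH11, 6 on each side, 8 passed the filter. None was at least 1.5-fold higher and 1 was lower in IDD4-DD than in WT, beside 3.15% and 2.47% of all genes. Their changes lay between -0.86 and 0.34, and with 8 genes nothing about the locus is drawn from this.

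XTH24 was also higher in IDD4-DD and IDD4ox than in WT. It had 143 FPKM in IDD4-DD, 59.1 FPKM in IDD4-AA and 84.0 FPKM in IDD4ox, against 46.1 FPKM in WT. The log2 changes were 1.61, 0.35 and 0.85, and the change of IDD4-DD against IDD4-AA was 1.26. IDD4-DD and IDD4ox had nearly equal IDD4 (198 and 197 FPKM) and not equal XTH24, and a link of XTH24 to the level of IDD4 was not tested. XTH16 had 33.9 FPKM in IDD4-DD, 26.8 FPKM in IDD4-AA and 26.5 FPKM in IDD4ox, against 17.0 FPKM in WT, with changes of 0.95, 0.62 and 0.61. XTH9 had 137 FPKM in IDD4-DD, 99.5 FPKM in IDD4-AA and 115 FPKM in IDD4ox, against 93.7 FPKM in WT, and XTH22 had 252, 240.1 and 158 FPKM in the same order, against 182 FPKM. XTH10 had 1.57 FPKM in both IDD4-DD and IDD4-AA and 0.744 FPKM in IDD4ox, against 0.553 FPKM in WT. XTH18 and XTH23, the members with the largest flg22 changes, were not higher in IDD4-DD or IDD4-AA: XTH18 had 29.5 and 31.1 FPKM there, against 39.4 FPKM in WT, and XTH23 had 7.99 and 9.51 FPKM, against 9.83 FPKM. In IDD4ox XTH18 was past 1.5-fold lower, with 25.4 FPKM (log2 change -0.61), while XTH23 had 10.9 FPKM (0.14).

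Several members known from roots had lower values in all 3 lines. XTH14, known from root hairs and the elongating root, had 22.5 FPKM in IDD4-DD, 24.3 FPKM in IDD4-AA and 25.0 FPKM in IDD4ox, against 38.4 FPKM in WT. XTH12 had 7.37, 5.86 and 7.11 FPKM in the same order, against 10.7 FPKM, and XTH13 had 2.51, 3.10 and 3.45 FPKM, against 4.98 FPKM. XTH26, another root hair member, had 1.51, 1.72 and 1.97 FPKM, against 2.75 FPKM, and XTH17 fell lowest in IDD4ox, with 15.1 FPKM, against 30.2 FPKM in WT (log2 change -0.95). XTH31, which also occurs in roots, had 94.0, 87.7 and 100.3 FPKM, against 136 FPKM. The 9 members known from roots (XTH12, XTH13, XTH14, XTH17 to XTH21 and XTH26), a list drawn up after the values had been seen, lay below 0 in 9 of 9 cases in IDD4-DD, 9 of 9 in IDD4-AA and 8 of 9 in IDD4ox, XTH21 being the exception at 0.02, and below 0 after scaling to the median ratio. Most of these changes were small: 2, 2 and 3 of the 9 were at least 1.5-fold lower, beside 2.47%, 2.12% and 2.49% of all genes. The medians over all genes were 0.03, 0.03 and 0.07 in the same order. The share of all genes below 0 was not counted, and a list made after the values gives no test.

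Markers of root tissue moved with these members. The 7 root markers summed to 132 FPKM in IDD4-DD and 146 FPKM in both IDD4-AA and IDD4ox, against 228 FPKM in WT, and 6 of 7 lay below 0 in each line, with medians of -0.57, -0.49 and -0.48. The root hair gene PRP3 had 38.7, 42.6 and 37.0 FPKM in the same order, against 88.3 FPKM in WT. PRP3 was the largest part of the drop of the root sum in each line. SHR was the marker that went the other way, with log2 changes of 0.022 in IDD4-DD, 0.218 in IDD4-AA and 0.440 in IDD4ox. The medians of the 9 root members were -0.49, -0.34 and -0.43 and thus close to those of the markers, and the part of a changed root share was not tested. The 5 leaf markers had sums of 7675, 6539.7 and 6802 FPKM in the same order, against 6559 FPKM. Their medians were -0.08, -0.02 and -0.26. In IDD4ox GAPB, CA1 and FBA1 were lower than in WT, while LHCB3 and LHCB2.1, which dominate the sum, were higher. In the flg22 experiment the root markers summed to 84.4 FPKM in idd4-labelled seedlings after flg22, against 67.6 FPKM untreated, and to 109.8 FPKM in WT after flg22, against 70.9 FPKM untreated. Most of both gains was TIP2;3, at 32.1 against 17.1 FPKM in idd4-labelled seedlings and 43.7 against 19.3 FPKM in WT. In idd4-labelled seedlings 4 markers lay above 0 and 3 below it, and in WT 5 above and 2 below. SHR was lower after flg22 in both genotypes, with log2 changes of -0.67 and -0.27 in that order.

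**Figure D4:**
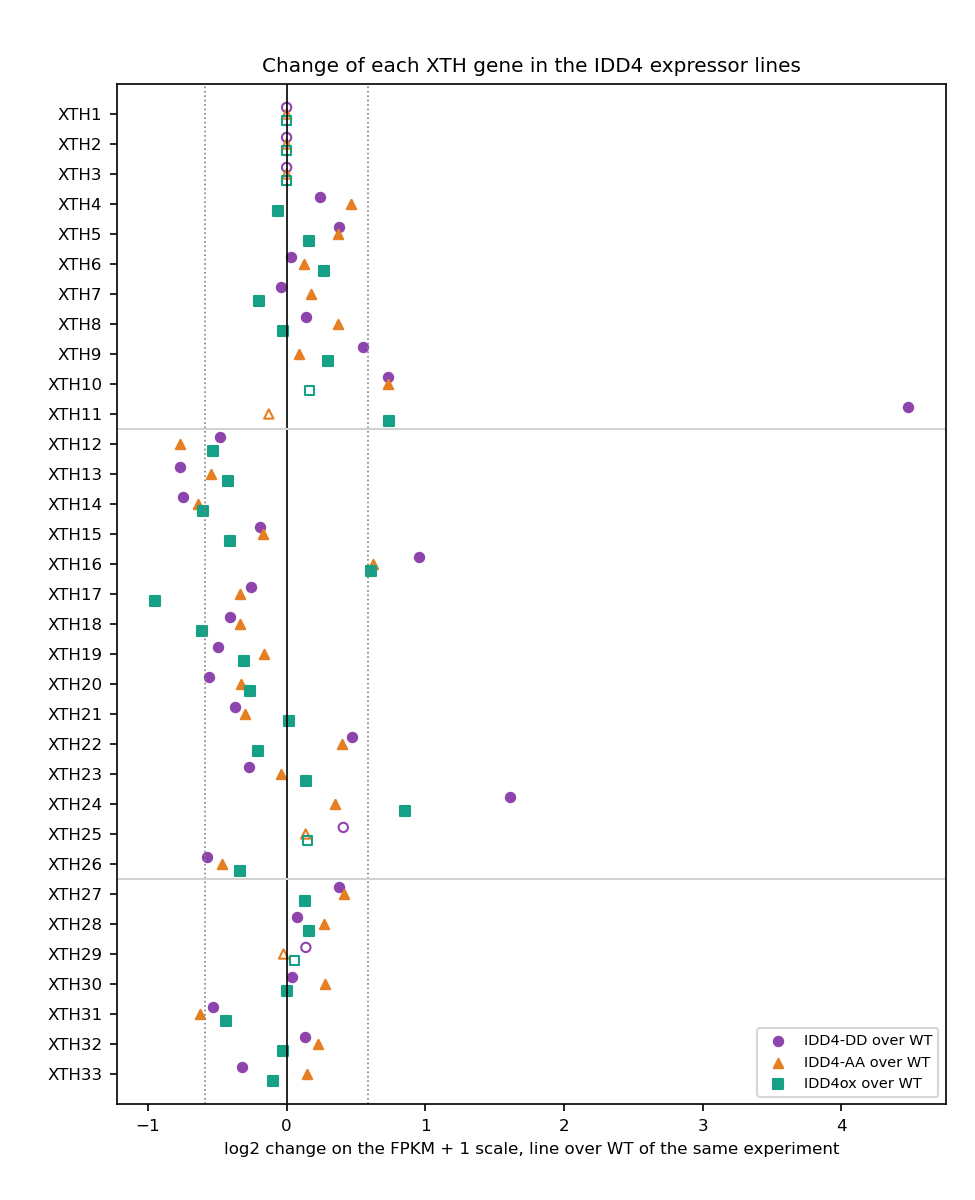
Log2 change of each XTH gene on the FPKM + 1 scale in IDD4-DD (purple circles), IDD4-AA (orange triangles) and IDD4ox (green squares), each over the WT of that experiment, which all 3 share; open symbols are genes under 1 FPKM in both groups, dotted lines mark 1.5-fold, and each group has 1 value and no error. XTH11 lies at 4.48 in IDD4-DD alone, XTH24 at 1.61, 0.35 and 0.85, and XTH12 to XTH14 and XTH17 to XTH20 lie left of 0 in all 3 lines.

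Against the WT that they share, IDD4-DD had 4 members at least 1.5-fold higher and 2 lower of 28, beside 3.15% and 2.47% of 18955 genes, and IDD4-AA had 2 higher and 3 lower of 27, beside 1.85% and 2.12% of 18859 genes. IDD4ox had 3 higher and 3 lower of 27, beside 3.94% and 2.49% of 19016 genes. XTH10 and XTH11 of the 4 higher in IDD4-DD, XTH10 of the 2 in IDD4-AA and XTH11 of the 3 in IDD4ox passed the filter through the line alone and so could only be higher. IDD4-DD against IDD4-AA gave 2 higher members, XTH11 and XTH24, and 0 lower of 28, beside 2.70% and 1.43% of 18956 genes. The medians of the members were -0.0025 in IDD4-DD, 0.13 in IDD4-AA and -0.06 in IDD4ox, beside 0.03, 0.03 and 0.07 over all genes. The members not named above, XTH4 to XTH8, XTH15, XTH19, XTH21, XTH27, XTH28, XTH30, XTH32 and XTH33, lay between -0.49 and 0.47 in all 3 lines. XTH19 was lowest of them, at 17.6 FPKM in IDD4-DD against 25.2 FPKM in WT, and XTH4 was highest, at 86.0 FPKM in IDD4-AA against 61.9 FPKM in WT.

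Members stood beside each other on chromosomes 4 and 5, and neighbours differed in some comparisons and moved alike in others. On chromosome 4 XTH24, XTH18 and XTH19 followed one another on the minus strand with no other protein-coding gene between them, and their flg22 changes in WT were 1.85, 4.76 and 0.71. In IDD4-DD against WT the same 3 genes were at 1.61, -0.41 and -0.49. XTH23 and XTH14, 363 bases apart on the plus strand of chromosome 4, were at 3.11 and 0.02 after flg22 in WT. On chromosome 5 XTH12, XTH13, XTH25 and XTH22 lay in a row on the minus strand, with 1 other gene in the row, and had 0.846, 0, 4.59 and 566 FPKM in WT after flg22. These are levels in 1 group and not changes. XTH12 and XTH13 were both lower than WT in each expressor line, at -0.48 and -0.77 in IDD4-DD. XTH15 overlapped a gene on the opposite strand by 382 bases, so part of its reads may belong to that gene where strand was not used in counting.

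Of 4 short motifs sought in the 500 bases before the start, 3 stood before a smaller share of the members than of all protein-coding genes and 1 before a larger share. The letters searched, on both strands, were AGACAA for the ID1 core, TTGACC or TTGACT for the W-box, CACGTG for the G-box and CGCGTT for the rapid stress response element, and no 2 of these overlap by design. The ID1 core was present before 8 of 33 members (24.2%), against 34.9% of 27443 protein-coding genes, and the W-box before 8 as well, against 45.2%. The G-box stood before XTH7 alone (3.03%), against 9.35%. CGCGTT stood before 3 members (9.09%), XTH13, XTH18 and XTH20, against 4.61%. Of the members with the largest flg22 changes XTH22 had 2 W-boxes, XTH23 had 1 W-box and 1 ID1 core, XTH18 had 1 W-box and CGCGTT, and XTH24 had none of the 4 motifs. XTH11 had none of them either. XTH13 and XTH20, which also carry CGCGTT, were not past 1.5-fold higher after flg22: XTH20 was at -0.17 in idd4-labelled seedlings and 0.12 in WT, and XTH13 was listed at 0 after treatment. These are matches of letters, and binding was not measured in the values used here.

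**Figure D5:**
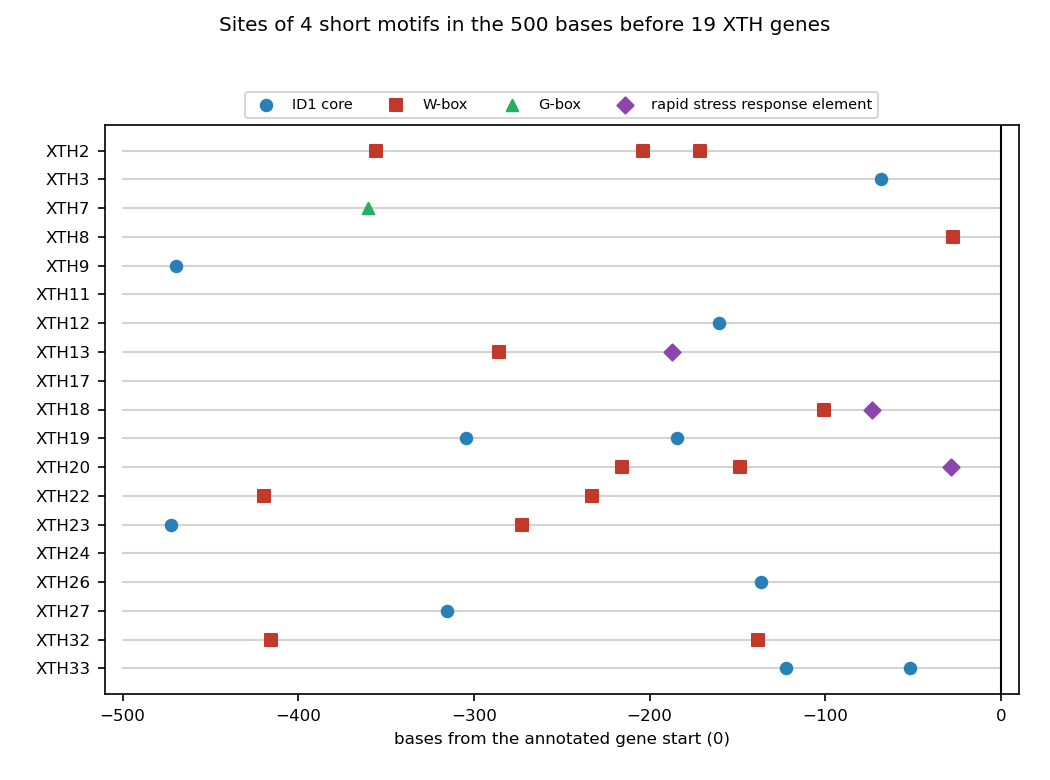
Places of 4 short motifs, as bases from the annotated gene start at 0, in the 500 bases before 19 XTH genes: the 16 with at least 1 match and XTH11, XTH17 and XTH24, which have none; each symbol is 1 match on either strand. XTH18 holds a W-box and the rapid stress response element within 103 bases of its start, while XTH17 holds no match.

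Genes of the rest of the xyloglucan pathway changed in both directions after flg22. Of 14 genes of xyloglucan synthesis 5 were at least 1.5-fold higher and 4 lower after flg22 in WT, beside 17.1% and 22.2% of all genes, and the same numbers were found in idd4-labelled seedlings, beside 20.4% and 19.4%. XXT1, which adds xylose to the glucan backbone, had the largest change, with 61.8 FPKM in WT after flg22, against 17.7 FPKM untreated (log2 change 1.75), and MUR3, a galactosyltransferase of the side chains, had 33.4 FPKM, against 12.9 FPKM (1.30). XXT5 had the highest level, with 122 FPKM in WT after flg22, against 54.0 FPKM untreated. XXT2 had 50.7 FPKM, against 42.5 FPKM. The backbone synthase CSLC4 had 41.5 FPKM, against 18.5 FPKM (1.12), and CSLC5 had 8.496 FPKM, against 15.3 FPKM. Of 3 trimming enzymes, XYL1, the xylosidase that removes side-chain xylose, was lower, with 35.4 FPKM, against 79.2 FPKM (-1.14), and AXY8, a fucosidase, had 20.4 FPKM, against 15.7 FPKM.

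Of 8 genes of primary-wall cellulose none was at least 1.5-fold higher and 1 lower after flg22 in either genotype, beside the same shares of all genes. The lower one was CESA5, with 9.50 FPKM in WT after flg22, against 24.8 FPKM untreated (-1.29). KOR1, a cellulase of the synthase complex, had 144 FPKM, against 108 FPKM (0.41). The 3 touch genes were named with XTH22 in the same screens. CML12 (TCH3) had 2286 FPKM in WT after flg22, against 66.0 FPKM untreated (5.09), CAM2 had 187 FPKM, against 56.8 FPKM (1.70), and CML24 (TCH2) had 202 FPKM, against 169.6 FPKM (0.25). CML12 thus changed about as much as XTH18, and XTH22 about as much as CAM2. Between the genotypes of the flg22 experiment none of these 28 genes was at least 1.5-fold higher or lower, untreated or after flg22. Over all genes 1.59% were higher and 2.02% lower untreated, and 3.15% and 1.72% after flg22. None of 28 lies near those shares. In the expressor lines none of the 28 was at least 1.5-fold higher, beside between 1.85% and 3.94% of all genes. The sole one lower was a gene of xyloglucan synthesis in IDD4-DD, XXT3, with 1.56 FPKM, against 2.97 FPKM in WT. Between 2.12% and 2.49% of all genes were lower in a line.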

How the data were processed

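RNA of whole seedlings was sequenced as 101-bp paired-end reads. By the study's methods the authors trimmed them with Trimmomatic, aligned them to TAIR10 with TopHat and computed FPKM with Cufflinks; the submitters' notes name these tools and Bowtie2. The deposited FPKM are 1 value a gene and group, combined by the authors over samples. Chromatin immunoprecipitation samples, 8 in number, were not analysed here.

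The identifiers did not line up with the values beside them, 21642 of 27371 away from their alphabetical place. After sorting, 1900 of 1900 genes held of a table of the study matched in both untreated groups to a relative tolerance of 0.001, against 534 without sorting, and sorted identifiers were used.

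Log2 differences of FPKM + 1 were computed over genes at 1 FPKM or more in either group, in 8 comparisons, with Python 3 (pandas, NumPy), and checked on simulated data. All 33 XTH genes are named. The members and lists were chosen with earlier results of these data known. Without values per sample no test was run, and how TopHat's reads were assigned by strand is not given in the sources used here. Gene models, promoters and names came from RefSeq's annotation of TAIR10.1; all 33 members matched. Catalytic-site letters were located by a pattern widened after XTH9 and XTH11 had been seen. Alternatives were a pseudocount of 0.1 FPKM, no filter, scaling to the median ratio and a 2-fold limit.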

Additional observations from a re-analysis of the deposited data

How the results depend on the processing

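No paired analysis was possible because each group has 1 value combined over its samples, and for the same reason no sample could be left out. No member past 1.5-fold changed sign with a pseudocount of 0.1 FPKM or with scaling to the median ratio. Scaling to the median ratio moved none of the 24 counts and medians by more than 1.5-fold or 0.1 on the log2 scale, a limit chosen for want of a spread between replicates. With a pseudocount of 0.1 FPKM, 1 member was at least 1.5-fold higher in untreated idd4-labelled seedlings than in WT and 4 were lower after flg22, 5 were lower in IDD4-AA and 4 in IDD4-DD than in WT, and 1 in IDD4-DD than in IDD4-AA. A smaller pseudocount widens every change, most at low levels; the members added were under 5 FPKM in both groups except XTH20 in IDD4-DD, at 10.7 FPKM against 16.1 FPKM in WT. The median of the members for flg22 in WT was -0.43 with that pseudocount and -0.16 with no filter, and the median for IDD4-AA against WT was 0 with no filter, since that setting adds members at or near 0. Past 2-fold, 5 members were lower after flg22 in idd4-labelled seedlings and 2 were higher in IDD4-DD than in WT. At that limit 0 members were lower and 0 higher in IDD4ox, in IDD4-AA and between the genotypes after flg22, 0 were lower in IDD4-DD than in WT and 0 were lower between the untreated genotypes. Among the lines only XTH11 and XTH24 in IDD4-DD lay past 2-fold, and abundant members such as XTH4 and XTH7 stayed short of it after flg22. Unknown depth limits the members under 1 FPKM most.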

Other observations

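XTH25, left out of the counts of the lines since it stayed under 1 FPKM, had 0.444 FPKM in IDD4-DD, 0.197 FPKM in IDD4-AA and 0.207 FPKM in IDD4ox, against 0.0879 FPKM in WT, while it had between 2.50 and 4.59 FPKM in the 4 groups of the flg22 experiment. Around the run of XTH24, XTH18 and XTH19 on chromosome 4, 11 of the 12 genes beside it, 6 on each side, passed the filter for flg22 in WT. Of these 4 were at least 1.5-fold higher and 4 lower, beside 17.1% and 22.2% of all genes, with log2 changes between -1.83 and 2.87.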
